A study of Homo sapiens with 22 samples.

Results

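The 4 HOX gene clusters hold 38 of the genes named here, and their chromatin was described from every peak that overlapped 1 of 4 windows of hg19. The windows were chr7 27.12 to 27.26 Mb (HOXA), chr17 46.6 to 46.82 Mb (HOXB), chr12 54.32 to 54.46 Mb (HOXC) and chr2 176.94 to 177.06 Mb (HOXD), 620 kb in all. Of 1311182 peaks in 13 lists, 1008 lay in a window, 393 of them H3K4me3 peaks and 615 peaks of a streptavidin capture. Within the windows every peak was taken, whatever its score.

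The cells were K562, an established human line from a chronic myeloid leukaemia, and all of them stably carried pEF1aBirAv5-neo, which supplies the bacterial biotin ligase BirA from an EF1a promoter, and grew in medium with G418. WT1 −KTS cells also carried pEF1a-Flagbiotin-(WT1+17AA/-KTS)-puro and WT1 +KTS cells pEF1a-Flagbiotin-(WT1+17AA/+KTS)-puro, each a tagged WT1 that the ligase can biotinylate, while untagged cells had no second plasmid. Streptavidin capture gave 2 libraries of −KTS, 3 of +KTS and 3 of untagged cells, and an H3K4me3 antibody gave 3 libraries of −KTS and 2 of +KTS cells. Whether a line was 1 clone, and whether replicates were separate cultures, is not given in the sources used here, so a p-value measures only the spread between these libraries, which may be technical.

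HOX genes encode homeodomain transcription factors that give cells their position along the body axis, and their order on the chromosome follows the order in which they act. In blood, many HOXA and HOXB genes are active in stem and progenitor cells and are turned down as cells mature, and raised HOXA9 is a hallmark of many acute leukaemias. Trimethylation of lysine 4 on histone H3 (H3K4me3) marks active and poised promoters and is laid down at HOX genes by KMT2A, against the repressive Polycomb group. WT1 is a zinc finger protein. Its splice form lacking a lysine, threonine and serine insert between zinc fingers (−KTS) binds G-rich DNA like EGR1 does, whereas the form that has the insert (+KTS) binds DNA more weakly and also associates with RNA.

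Peaks were not assigned to single genes, because no gene annotation of hg19 was used here. In RefSeq's order of the 38 genes, the HOXA window runs from HOXA2 at its low-coordinate end to HOXA13 at its high end, and HOXB from HOXB1 to HOXB9 with HOXB13 last. HOXC and HOXD run the other way, from HOXC13 and HOXD13 at the low end, and HOXD ends with HOXD1. HOXC4, HOXC5 and HOXC6 stand at the high end of HOXC. Genes were sorted by lowest coordinate, and HOXC4 and HOXC5 share a start, so the order among these genes is not given here. Positions below are therefore given as hg19 coordinates or as the distance from the low end of the window.

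The 3 sequences below are examples of what HOX promoters look like to a G-rich binder and to enzymes that prefer CpG-rich DNA. RefSeq promoter sequences of GRCh38.p14 were matched by symbol for 20 of the 38 genes, at 27 transcription starts, of which HOXC4 and HOXC5 share 1. Each sequence below is the 250 bases before the start, 5′ to 3′ on the gene's strand. HOXD1 (chr2:176188418-176188667, plus strand) held the only match to GCGGGGGCG, the EGR1 site, and capitals mark it, on the opposite strand, from base 206. HOXA13 (chr7:27200092-27200341, minus strand) had the most CpG pairs of the 27, 40 in 250 bases. HOXD4 (chr2:176151300-176151549, plus strand) had 4, which was not the fewest, since 1 start of HOXA3 had 0. Capitals mark each CpG in HOXA13 and HOXD4.
HOXD1: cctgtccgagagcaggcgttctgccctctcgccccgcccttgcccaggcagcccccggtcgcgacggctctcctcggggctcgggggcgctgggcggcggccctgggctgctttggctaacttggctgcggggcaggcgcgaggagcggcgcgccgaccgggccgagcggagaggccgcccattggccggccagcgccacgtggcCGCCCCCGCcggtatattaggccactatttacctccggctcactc
HOXA13: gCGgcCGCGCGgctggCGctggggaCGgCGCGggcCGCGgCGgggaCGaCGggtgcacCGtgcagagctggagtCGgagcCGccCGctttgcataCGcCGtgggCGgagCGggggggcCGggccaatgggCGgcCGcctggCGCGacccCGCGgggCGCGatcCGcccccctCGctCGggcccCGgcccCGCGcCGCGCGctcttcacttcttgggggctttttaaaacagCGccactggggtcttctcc
HOXD4: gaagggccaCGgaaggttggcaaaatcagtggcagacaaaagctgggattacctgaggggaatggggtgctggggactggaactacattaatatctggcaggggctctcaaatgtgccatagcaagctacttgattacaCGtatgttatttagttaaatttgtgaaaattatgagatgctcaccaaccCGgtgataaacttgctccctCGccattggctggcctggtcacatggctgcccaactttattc

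Both HOXA13 and HOXD4 lacked the GCGGGGGCG match of HOXD1. These positions are of GRCh38.p14 and were not set against the hg19 peaks. The 27 HOX promoters were 16 of HOXA, 8 of HOXD, 2 of HOXC and 1 of HOXB, and HOXA3 gave several of them. Their values therefore describe mostly HOXA and HOXD. Over the whole 300 bases, the 27 HOX promoters held a median of 22 CpG pairs, against 14 in all 35116 promoters, with a median G and C content of 58.0% against 58.7%. On either strand, GCGGGGGCG was found in 1 of 27 (3.70%) HOX promoters and in 5.07% of all. GCGTGGGAG, a known WT1 motif, was found in 0 of 27 and in 0.689% of all. The looser GNGNGGGNG, which contains the other 2 patterns, was found in 16 of 27 (59.3%) and in 46.7% of all.

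The libraries were unlike in list length. Capture lists held 154732 and 3245 peaks in −KTS and 543203, 373510 and 35455 in +KTS cells, while H3K4me3 lists held 27341 to 53149, so −KTS replicate 2 and +KTS replicate 3 stood far below the other tagged capture lists. A code in the name of each +KTS list is shared with the untagged list of the same number, and H3K4me3 +KTS replicates 1 and 2 share theirs with capture +KTS replicates 2 and 3. No −KTS list carries a code, and the names of those lists contain the word pooled, so the WT1 form cannot be told apart from how its lists were made. Whether the −KTS lists are independent of each other is unknown too, although they enter the tests and comparisons below as separate libraries. Under each of the 3 codes, the untagged list had 0 peaks in the HOX windows.

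H3K4me3 was dense in all 4 clusters. In −KTS cells 3.24%, 9.12% and 5.89% of window bases lay in a peak in replicates 1, 2 and 3, and in +KTS cells 7.49% and 7.79% in replicates 1 and 2. Every library covered a larger share of the HOX windows than of the genome, which it covered to 0.309%, 0.754% and 0.554% in the −KTS and to 0.715% and 0.977% in the +KTS libraries. The HOX share was thus 10.5, 12.1 and 10.6 times the genome's in −KTS and 10.5 and 7.97 times in +KTS cells. The mean difference was 6.05 percentage points ± 2.04 (SD, n = 5), positive in 5 of 5 libraries, with an exact two-sided sign-flip permutation p of 0.0625, the smallest that 5 libraries allow.

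Sequence beside the clusters was covered less. In the 500 kb on each side of the windows, coverage was 0.999%, 1.83% and 1.05% in −KTS and 1.47% and 1.89% in +KTS cells. The HOX share was 3.25, 5.0 and 5.64 times as large in −KTS and 5.09 and 4.13 times in +KTS cells, higher in 5 of 5 libraries (mean difference 5.26 points, exact permutation p = 0.0625, the smallest possible). The enrichment was therefore seen against neighbouring sequence too, at a smaller ratio than against the genome in every library.

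HOXD, whose late genes pattern limbs and digits, had the highest mean coverage. In −KTS replicates 1, 2 and 3 it was 3.14%, 10.9% and 8.08%, and in +KTS replicates 1 and 2 10.0% and 8.63%. HOXA, which holds HOXA9 and HOXA10, had 2.1%, 7.69% and 6.29% in −KTS and 6.51% and 6.35% in +KTS cells. HOXD was above HOXA in 5 of 5 libraries, by 2.36 points ± 1.01 (SD, n = 5; exact permutation p = 0.0625, adjusted p = 0.188 over 6 pairs of clusters, so the difference did not pass).

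HOXB and HOXC, which carry genes for the hindbrain and trunk and for the trunk and tail, fell between these. HOXB had 4.58%, 9.04% and 4.46% in −KTS and 7.15% and 7.91% in +KTS cells. HOXC had 2.38%, 9.19% and 5.89% in −KTS and 6.81% and 8.30% in +KTS cells. HOXD was above HOXC in 5 of 5 libraries by 1.64 points (exact permutation p = 0.0625, adjusted p = 0.188), and the other 4 pairs had adjusted exact permutation p-values between 0.375 and 0.875. No order among the 4 clusters passed the test.

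**Figure D1:**
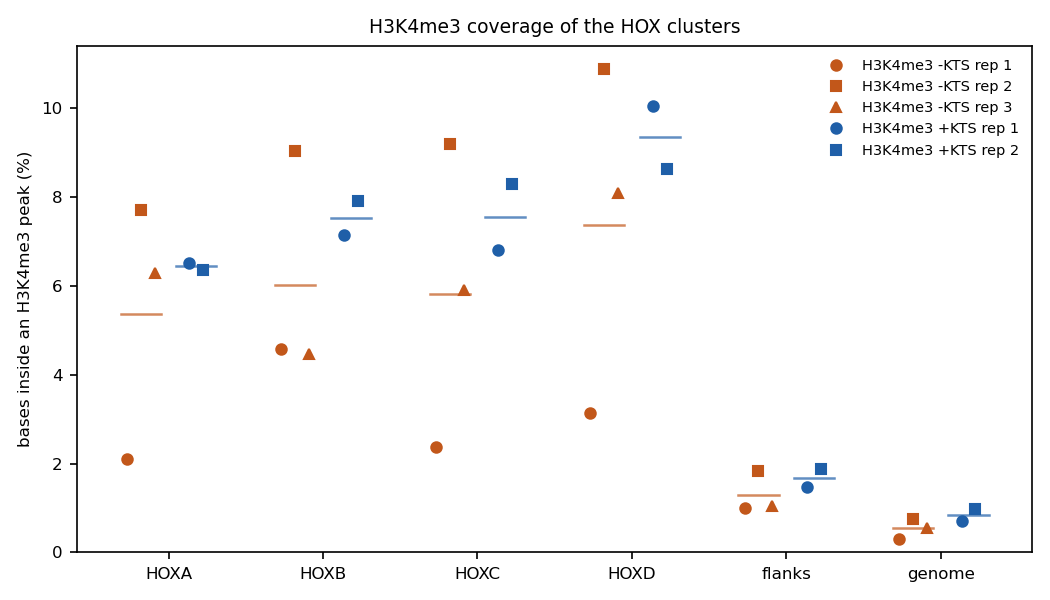
Percent of bases inside an H3K4me3 peak (vertical axis) in the 4 HOX windows, in the 500 kb on each side of them (flanks) and in the genome; each symbol is 1 library, orange for WT1 −KTS and blue for WT1 +KTS cells, and bars are group means. In every library all 4 clusters lie above the genome and above the flanks, which are pooled over the 4 windows, and −KTS replicate 1 is lowest in HOXA, HOXC and HOXD.

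The difference in coverage between the 2 kinds of cell was smaller than the spread among the −KTS libraries. The mean over 3 −KTS libraries was 6.09% ± 2.95 (SD) and over 2 +KTS libraries 7.64% ± 0.211 (SD), a difference of 1.55 points (exact two-sided permutation p = 0.6, where 0.2 is the smallest possible). The +KTS values lay within the range of the −KTS libraries. In single clusters the difference was 1.07 points in HOXA, 1.51 in HOXB, 1.73 in HOXC and 1.97 in HOXD, each with an adjusted exact permutation p of 0.8.

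Single libraries moved the size of this difference, and scaling turned its sign. Without −KTS replicate 1 it was 0.129 points and without −KTS replicate 2 it was 3.07 points. Divided by the same library's genome coverage, a scaling added after the data were seen, coverage gave a mean ratio of 11.1 ± 0.883 (SD) over the −KTS and 9.22 ± 1.77 (SD) over the +KTS libraries, a difference of -1.86 (exact permutation p = 0.2). Peaks of −KTS replicate 1 were the narrowest, with a median of 187 bp in the windows against 304 to 488 bp in the other 4 libraries, and its part in the result was not tested.

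Regions shared by all libraries were a larger part of H3K4me3 in the windows than in the genome. Merging the 5 libraries gave 92 regions in the windows, of which 28 were called in all 5 libraries (30.4%), against 16.2% of the 72310 merged regions of the genome. These 28 made 4.52 regions per 100 kb against 0.378 in the genome, and their median width of 1610 bp was close to the 1573 bp of the genome's. Of the 92, 34 were called in 1 library only (37.0%, against 60% in the genome). HOXA had 5 of the regions shared by all 5 libraries, HOXB 9, HOXC 7 and HOXD 7.

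The widest shared region of the 4 windows lay in HOXB. It was chr17:46618441-46622684 (4244 bp), which ranked within the best 24.1%, 6.06% and 8.64% of the −KTS lists and 10.1% and 5.56% of the +KTS lists. Ranks are by the authors' own peak score within each list, and cannot be compared between lists of different lengths. The next in HOXB were chr17:46653231-46656990 (3760 bp), chr17:46700684-46703851 (3168 bp) and chr17:46680152-46682397 (2246 bp). Of these, chr17:46700684-46703851 ranked at 18.3%, 11.4% and 1.58% of the −KTS lists and at 1.08% and 4.80% of the +KTS lists. The fifth in HOXB, chr17:46805465-46806983 (1519 bp), lay far from the others, 206 kb into the window, at the end where HOXB13 is the last gene.

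The 5 shared regions of HOXA lay on both sides of a gap. Near the end where HOXA2 and HOXA3, genes of the hindbrain, are first, chr7:27134666-27137150 (2485 bp) and chr7:27152349-27154422 (2074 bp) were called. Further in, toward HOXA13, were chr7:27189774-27191308, chr7:27200248-27201143 and chr7:27223060-27224846. The region chr7:27223060-27224846 (1787 bp) had scores of 149, 871 and 1210 in −KTS and 1026 and 600 in +KTS libraries.

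In HOXC the widest shared regions were chr12:54342920-54345762 (2843 bp), chr12:54388073-54390663, chr12:54410597-54412648, chr12:54393113-54395120 and chr12:54356763-54357862. The first of them, toward the HOXC13 end, ranked at 97.3%, 48.2% and 19.8% of the −KTS lists and at 23.9% and 0.764% of the +KTS lists. In HOXD they were chr2:176993479-176995629 (2151 bp), chr2:176943554-176945589, chr2:176957273-176958957, chr2:176962535-176963672 and chr2:176961441-176962517. All but the first began 3.6 to 22.5 kb into the window, toward HOXD13.

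**Figure D2:**
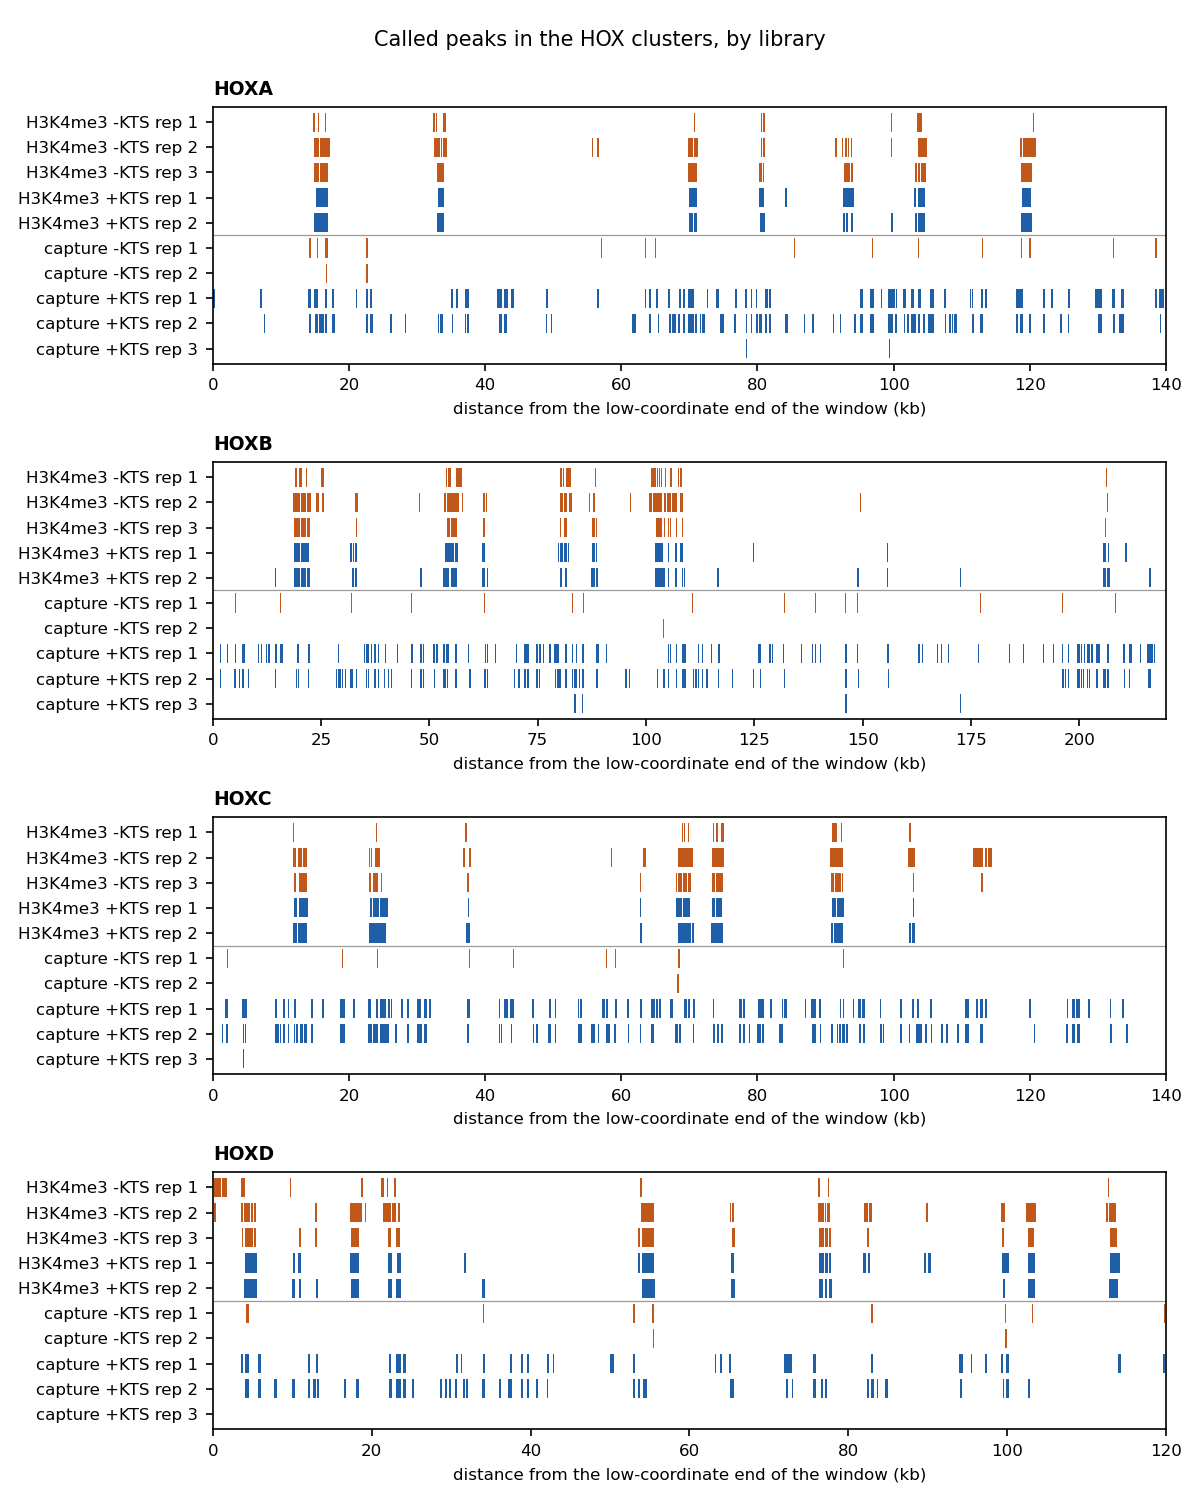
Every called peak in the 4 windows, by library (rows) and distance from the low-coordinate end of the window in kb (horizontal axis); orange is WT1 −KTS and blue WT1 +KTS, with H3K4me3 above the grey line and streptavidin capture below it. The 28 H3K4me3 regions of all 5 libraries appear as vertical blocks, capture peaks of +KTS replicates 1 and 2 are spread along each window, and the 3 untagged libraries, not drawn, had 0 peaks.

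Few regions were called in every library of 1 kind of cell and in none of the other. None of the 92 was called in all 3 −KTS and no +KTS library (0%, against 0.306% in the genome). In contrast, 2 were called in both +KTS and no −KTS library (2.17%, against 2.06%), so the share was near that of the genome. One was chr17:46755504-46755836 in HOXB, with scores of 153 and 94. The other was chr2:176950021-176950401 in HOXD, with scores of 49 and 57. The lowest score in −KTS lists was 50 and in +KTS lists 13, so a peak scored 49 could not stand in a −KTS list.

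Along the clusters, H3K4me3 was found in 48 of 62 tiles of 10 kb (77.4%), against 15.9% of tiles in the genome, and in all 5 libraries in 28 tiles (45.2%, against 3.71%). The tile with the highest coverage was at 100 to 110 kb of HOXB, with 29.6%, 62.5% and 25.8% in −KTS and 32.9% and 34.3% in +KTS libraries. Replicate 2 of −KTS stood far above the others there. The tile at 20 to 30 kb of the same window was similar, with 16.3%, 35.9% and 17.8% in −KTS and 20.5% and 20.2% in +KTS libraries.

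In 10 of the 48 tiles (20.8%) both +KTS libraries were above all 3 −KTS libraries, against 14.5% of the 49281 tiles of the genome with H3K4me3, and in 0 tiles the reverse held, against 0.448%. The 10 were 1 tile in HOXA, 4 in HOXB, 2 in HOXC and 3 in HOXD. With each library divided by its genome coverage, as above, +KTS was higher in 6 tiles (12.5%, genome 5.65%) and −KTS in 8 (16.7%, genome 4.15%). The direction of the split therefore depended on the scaling. Without −KTS replicate 2 the count was 22 of 44 tiles (50%, genome 27.0%), and without +KTS replicate 1 it was 17 of 46 (37.0%, genome 66.1%). Without −KTS replicate 1 the reverse order held in 4 of 48 tiles (8.33%, genome 2.46%).

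Among the 10 tiles, 3 had the widest gaps between means. At 200 to 210 kb of HOXB, at the end where HOXB13 is last, coverage was 2.22%, 3.28% and 2.15% in −KTS and 9.94% and 13.3% in +KTS libraries. At 20 to 30 kb of HOXC it was 0.930%, 13% and 11.4% in −KTS and 22.5% and 25.1% in +KTS libraries. At 30 to 40 kb of HOXB it was 1.00%, 4.56% and 1.99% in −KTS and 10.9% and 9.08% in +KTS libraries. In these 3 tiles the groups did not overlap. They were picked after their values were seen and carry no test. At 110 to 120 kb of HOXC the order was the opposite in means but rested on 1 library, with 0%, 20.4% and 1.95% in −KTS and 0% in both +KTS libraries.

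**Figure D3:**
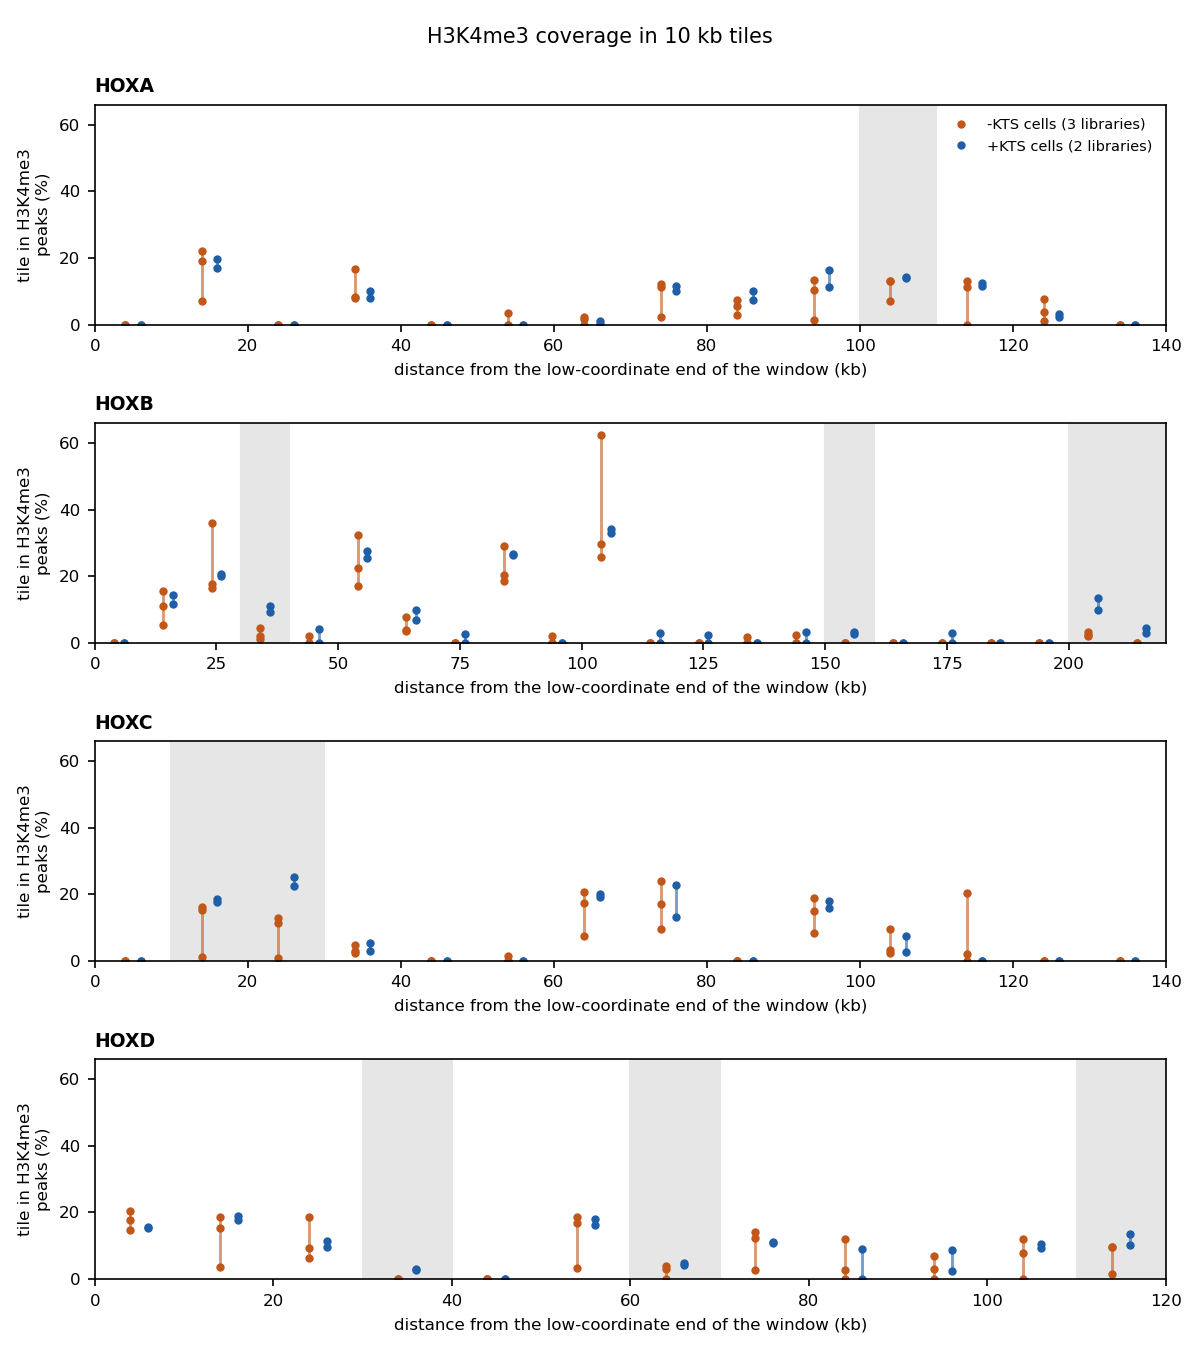
Percent of each 10 kb tile inside an H3K4me3 peak (vertical axis) against distance from the low-coordinate end of the window in kb; each point is 1 library, orange for the 3 WT1 −KTS and blue for the 2 WT1 +KTS libraries, and lines join the lowest and highest. Grey marks the 10 tiles where both +KTS libraries were above all −KTS libraries, and the 100 to 110 kb tile of HOXB reaches 62.5%.

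Capture of tagged WT1 gave peaks in the HOX windows and the untagged control gave none. The counts were 65 and 6 in −KTS replicates 1 and 2, 255, 282 and 7 in +KTS replicates 1, 2 and 3, and 0 in each of the 3 untagged libraries, whose whole lists held 743, 101 and 311 peaks. The mean was 181 ± 152 (SD, n = 3) for +KTS (exact two-sided permutation p = 0.1 against untagged) and 35.5 ± 41.7 (SD, n = 2) for −KTS (exact permutation p = 0.2), and neither design can give a smaller p. At their genome densities of 0.0240, 0.00326 and 0.0100 peaks per 100 kb, the untagged lists would hold fewer than 1 peak in 620 kb, so their 0 says nothing particular to the HOX windows, and these p-values compare list lengths as much as the windows. Without 1 library the mean of −KTS was 6 or 65, and that of +KTS was 131 to 269.

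These counts have to be read against the length of each list. Per 100 kb, the windows held 10.5 and 0.968 peaks in −KTS and 41.1, 45.5 and 1.13 in +KTS libraries, against 5.0 and 0.105 and against 17.6, 12.1 and 1.15 in the genome. The density was thus 2.1 and 9.23 times the genome's in the −KTS and 2.34, 3.77 and 0.985 times in the +KTS libraries. The mean difference was 12.7 peaks per 100 kb ± 15.0 (SD, n = 5), positive in 4 of 5 libraries, with an exact sign-flip permutation p of 0.125 (smallest possible 0.0625). The library below its genome value was +KTS replicate 3.

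Against the 500 kb on each side, the excess was smaller. The density was 0.982 and 4.30 times that of the flanks in the −KTS and 1.59, 2.74 and 0.664 times in the +KTS libraries, above 1 in 3 of 5 (mean difference 8.83 per 100 kb, exact permutation p = 0.312). The 9.23 and 4.30 of −KTS replicate 2 rest on 6 peaks.

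HOXA and HOXB were above the genome in 5 of 5 capture libraries, and HOXC and HOXD in 4 of 5. HOXA had 2.71 and 13.6 times the genome's peak density in −KTS and 2.24, 4.20 and 1.25 times in +KTS libraries (exact permutation p = 0.0625). HOXB had 2.55 and 4.33 times in −KTS and 2.51, 3.35 and 1.59 times in +KTS libraries (exact permutation p = 0.0625). HOXC had 1.29 and 6.81 times in −KTS and 2.93, 4.68 and 0.623 times in +KTS libraries (exact permutation p = 0.125). HOXD had 1.50 and 15.9 times in −KTS and 1.47, 2.97 and 0 times in +KTS libraries (exact permutation p = 0.125). The values of −KTS replicate 2 rest on 1 peak each in HOXB and HOXC and on 2 each in HOXA and HOXD. Those of +KTS replicate 3 rest on 2 peaks in HOXA, 4 in HOXB, 1 in HOXC and 0 in HOXD. The 5 of 5 of HOXA and HOXB therefore depends on few peaks in these 2 libraries. The 500 kb on each side of all 4 windows were pooled, so no cluster was set against its own neighbouring sequence. Against these pooled flanks, HOXB was higher in 5 of 5 libraries (exact permutation p = 0.0625) and HOXA in 4 (exact p = 0.125). HOXC was higher in 3 (exact p = 0.438) and HOXD in 2 (exact p = 0.875). In +KTS replicate 3 HOXB stood at 1.07 times the pooled flanks, on 4 peaks. With 5 libraries no p can be below 0.0625, and differences among the clusters were not tested.

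**Figure D4:**
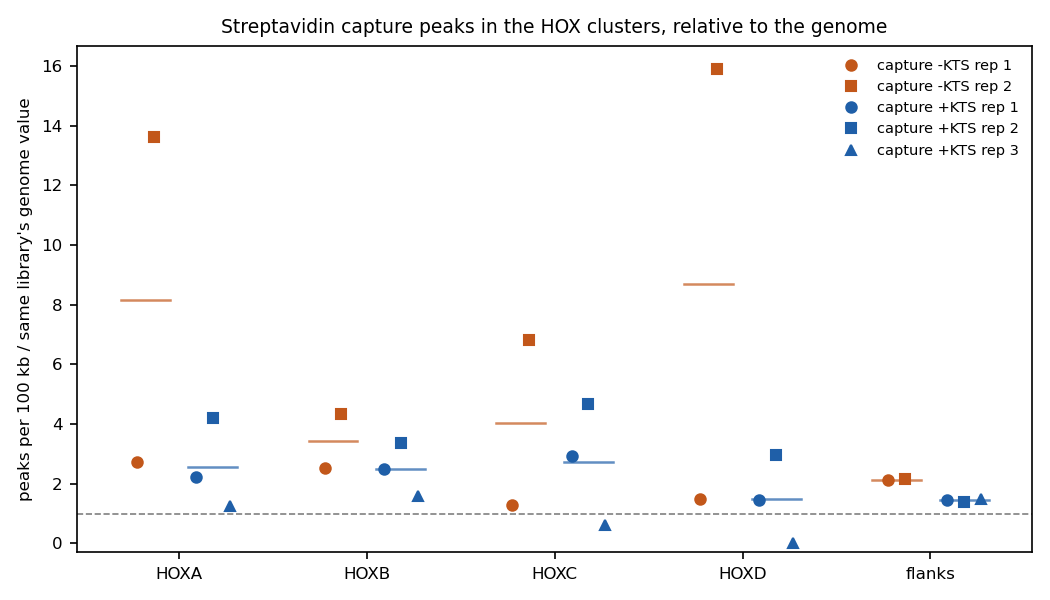
Streptavidin capture peaks per 100 kb in each HOX window and in the 500 kb on each side (flanks), divided by the same library's genome value (vertical axis, dashed line at 1); each symbol is 1 library, orange for WT1 −KTS and blue for WT1 +KTS, and bars are group means. The highest values, 13.6 in HOXA and 15.9 in HOXD, are −KTS replicate 2, with 2 peaks in each of these windows. Flanks are pooled over the HOX windows.

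The difference in covered share between the −KTS and +KTS forms did not pass the test. Capture peaks covered 1.67% and 0.180% of the windows in −KTS and 14.6%, 14.7% and 0.276% in +KTS libraries, a difference in means of 8.91 points (exact permutation p = 0.4, smallest possible 0.2). Genome coverage differed in the same direction, with means of 0.412% and 3.60%. With the 3245 best peaks of each list, the difference was -0.0682 points (exact permutation p = 0.6), and the windows then held 3 and 6 peaks in −KTS and 0, 2 and 1 in +KTS libraries.

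Most capture peaks of −KTS replicate 1 were also called in +KTS replicates 1 and 2. Of its 65 peaks in the windows, 70.8% were found in +KTS replicate 1, near the genome's 66.7%, and 63.1% in +KTS replicate 2 (genome 37.1%). In the shorter list of +KTS replicate 3, 3 of the 65 were found (4.62%, genome 9.41%). Peaks of +KTS replicates 1 and 2 reached nearly the whole of each window. Of the 62 tiles, 62 held a peak of +KTS replicate 1 and 58 of +KTS replicate 2, against 59.5% and 43.6% of tiles in the genome. Of −KTS replicate 1, 40 tiles (64.5%) held a peak, against 29.9%. The number of regions that every library of a form could call was capped by its shortest list. In the windows −KTS replicate 2 held 6 peaks and +KTS replicate 3 held 7, so the counts below say little about agreement between libraries. Of the 7, 6 (85.7%) were also found in +KTS replicate 1 and 6 in +KTS replicate 2 (genome 86.0% and 64.2%). Merging the 5 tagged libraries gave 373 regions. Both −KTS libraries called 6 of them (1.61%, against 0.313% of 652786 in the genome), all 3 +KTS libraries called 6 (1.61%, against 3.25%) and at least 4 of 5 libraries called 6 (1.61%, against 1.43%).

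The 6 peaks of −KTS replicate 2 were all found in −KTS replicate 1 (100%, against 62.9% of its peaks in the genome), and 5 of the 6 overlapped H3K4me3. In HOXB the region was chr17:46703836-46704297, with scores of 288 and 185. It overlapped the end of the wide H3K4me3 region that ends at 46703851, and also chr17:46704030-46704553, an H3K4me3 region called in 4 libraries. In HOXC the capture region was chr12:54387835-54388807, with scores of 288 and 308, at the start of a shared H3K4me3 region. Both capture regions stood in the best 0.483% of −KTS replicate 1, and each was also called in +KTS replicate 2.

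HOXA and HOXD had 2 such regions each. In HOXD, chr2:176995311-176995535 (scores 152 and 303) lay within the widest shared H3K4me3 region of that cluster and was called in 0 of 3 +KTS libraries. The other, chr2:177039765-177040216 (152 and 249), was called in +KTS replicates 1 and 2 as well, with scores of 25 and 33. In HOXA, chr7:27136420-27136774 (116 and 98) lay on H3K4me3 of all 5 libraries. It falls outside the naming rule, which takes 5, and was named after its values were seen.

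The exception to H3K4me3 was chr7:27142530-27142829 in HOXA, called in both −KTS libraries with scores of 178 and 368 and in +KTS replicates 1 and 2 with 53 and 51. It was 300 bp wide, lay 22.5 kb into the window between the first 2 shared H3K4me3 regions, and its nearest H3K4me3 peak in any library was 5379 bp away. It stood within the best 3.29% of −KTS replicate 1 and 10.4% of −KTS replicate 2, and at 56.2% and 60.9% of the 2 +KTS lists.

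Of the 6 regions called in all 3 +KTS libraries, the naming rule takes 5. They were chr12:54324313-54325011 in HOXC, chr17:46745910-46746281, chr17:46683473-46684048 and chr17:46685211-46685786 in HOXB, and chr7:27219107-27220166 in HOXA. The worst rank of each over the 3 lists ran from 36.8% in HOXC to 97.1% in HOXA. The region in HOXC stood at 11.8%, 32.5% and 36.8% of +KTS replicates 1, 2 and 3, and its nearest H3K4me3 peak was 6785 bp away. Of the 6, chr7:27219107-27220166 overlapped H3K4me3 of any library and 5 did not. The H3K4me3 region it met, chr7:27219589-27219955, was called in −KTS replicates 1 and 2 and in +KTS replicate 2 only. By the rule used below, at least 2 libraries of the same cells, it would not count for +KTS, so this share cannot be set beside those below. The sixth region called in all 3 +KTS libraries was chr7:27198202-27198488, named after its values were seen, with scores of 40, 17 and 54. The best-ranked HOX peak of +KTS replicate 3, chr17:46772481-46772714 with a score of 168, was called in neither +KTS replicate 1 nor 2 and in −KTS replicate 1 with a score of 81. It overlapped an H3K4me3 peak of +KTS replicate 2 with a score of 159, in a region called in that H3K4me3 library only. The list of that H3K4me3 library shares its code with capture +KTS replicate 3.

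Capture peaks in the HOX windows overlapped H3K4me3 of the same cells more often than capture peaks of the genome did in 4 of 5 libraries. H3K4me3 here means a region called in at least 2 libraries of that cell, and such regions covered 9.37% of the windows in −KTS and 7.93% in +KTS cells, against 0.808% and 0.774% of the genome. In −KTS the overlapping peaks were 20 of 65 (30.8%) and 5 of 6 (83.3%), against 4.49% and 47.3% in the genome. In +KTS they were 40 of 255 (15.7%), 62 of 282 (22.0%) and 0 of 7, against 3.13%, 7.15% and 2.45%. The exact Clopper-Pearson 95% intervals were 19.9% to 43.4%, 35.9% to 99.6%, 11.4% to 20.7%, 17.3% to 27.3% and 0% to 41.0%. They cover counting error only, since peaks of 1 library share their source. None of these shares was scaled to H3K4me3 coverage, which was larger in the windows than in the genome. A higher share in the windows therefore does not show that capture favoured H3K4me3 more there than in the genome.

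The share was higher in both −KTS libraries than in the 3 +KTS libraries, at 30.8% and 83.3% against 15.7%, 22.0% and 0%. The difference was not tested, and the rule of at least 2 libraries means 2 of 3 in −KTS and 2 of 2 in +KTS cells. Pooled over libraries it was 35.2% in −KTS and 18.8% in +KTS, and 66.7% (6 of 9 peaks) and 33.3% (1 of 3 peaks) with the 3245 best peaks of each list. With 2 of 2 libraries required in −KTS too, the pooled share came to 32.4%, 22.5% or 21.1% as H3K4me3 −KTS replicate 1, 2 or 3 was dropped, so in 2 of these 3 settings it lay near the 18.8% of +KTS. By cluster, −KTS replicate 1 had 8 of 19 peaks on H3K4me3 in HOXA, 4 of 28 in HOXB, 3 of 9 in HOXC and 5 of 9 in HOXD. In +KTS replicate 2 the counts were 15 of 71, 18 of 89, 18 of 79 and 11 of 43.

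**Figure D5:**
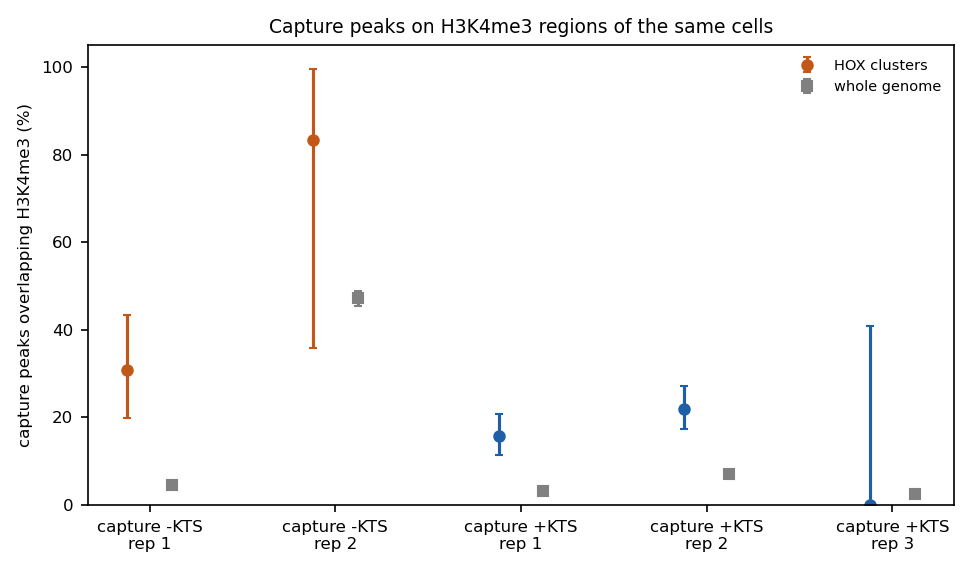
Percent of capture peaks that overlap an H3K4me3 region of the same cells (vertical axis), for peaks in the HOX windows (circles, orange for WT1 −KTS and blue for WT1 +KTS) and in the genome (grey squares), by library; bars are exact Clopper-Pearson 95% intervals. The HOX share is above the genome's in 4 libraries, and in +KTS replicate 3 it is 0 of 7. Shares are not scaled to H3K4me3 coverage, which is larger in the windows.

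Stretches with no H3K4me3 region called in at least 2 libraries of a cell still held capture peaks. HOXB had 2 such stretches of 40 kb, the longest of the 4 windows. At 110 to 150 kb there were 6 and 0 peaks of −KTS and 15, 13 and 1 of +KTS libraries, and at 160 to 200 kb 5 and 0 of −KTS and 14, 6 and 1 of +KTS libraries. In +KTS replicates 1 and 2 the first held 37.5 and 32.5 peaks per 100 kb, against 45.6 and 42.2 in the rest of the window, and the second 35 and 15, against 46.1 in both. In −KTS replicate 1 the densities were 15.0 against 12.2 and 12.5 against 12.8. Capture of +KTS replicates 1 and 2 was thus sparser than in the rest in both stretches of HOXB.

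The longest stretches of the other clusters, 20 kb each, did not share 1 direction. In +KTS replicates 1 and 2 the 40 to 60 kb stretch of HOXC had 55.0 and 65.0 peaks per 100 kb, against 50.8 and 55.0 in the rest of its window. The 120 to 140 kb stretch of the same window had 35 and 30, against 54.2 and 60.8, so the 2 stretches of HOXC lay on opposite sides of the rest. The 30 to 50 kb stretch of HOXD had 40 and 50, against 23 and 33. The 40 to 60 kb stretch of HOXA had 25 and 20, against 41.7 and 55.8. In these +KTS libraries the 6 stretches held 4 to 15 peaks each, and no test was made.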

How the data were processed

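H3K4me3 and streptavidin-captured chromatin of K562 cells were analysed as 13 peak lists, 1 per sample, each treated as 1 library. Of the 22 samples in the labels, 9 inputs were not analysed here. Per the submitters' processing notes, Bowtie2 2.2.7 and MACS2 2.1.1.20160226 were used and the build was hg19; for thresholds, read filters and control libraries nothing is stated. The deposited lists give position and a whole-number score per peak, the authors' own value, used only to rank and filter within a list. The lowest score was 50 in lists of −KTS cells and 13 in all others, and names of −KTS lists contain the word pooled, without saying what was pooled. The read depth of a library is unknown from its list.

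Only peaks on the numbered chromosomes, X and Y entered. The covered share is the percent of bases in a merged peak, over chromosomes up to the largest peak end. Peaks overlapped from 1 bp. Tests were exact permutation tests over libraries, two-sided, with Benjamini-Hochberg adjustment over the 4 clusters or 6 pairs. Up to 5 regions of each kind were named: H3K4me3 regions of all 5 libraries by width, capture regions by best worst rank, and all regions of 1 kind of cell alone. The windows, lists and rules were chosen with earlier results of these data known. Equal lists were the 27341 best peaks of each H3K4me3 and the 3245 best of each capture library. Peaks were not assigned to genes or searched for motifs, because no annotation or sequence of hg19 was used here. Python 3.11.15, numpy 2.4.6, pandas 2.3.3 and scipy 1.17.1 were used, and coverage, overlap and tile calls were tested on simulated data.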

Additional observations from a re-analysis of the deposited data

How the results depend on the processing

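Dropping peaks scored under 50 turned no direction, nor did windows 20 kb longer on each side, which were not run for single clusters, tiles or shared regions, and no exact p fell below 0.0625 under any setting. Covered share of H3K4me3 between cells turned with scaling, from 1.55 points to a ratio difference of -0.0160 against the 500 kb on each side, -1.20 against occupied tiles and -1.86 against the genome. Without H3K4me3 −KTS replicate 1 it was -0.557 points in HOXA and -0.139 in HOXD. With any 1 library left out it ran from -0.557 to 2.24 in HOXA, from -0.139 to 3.73 in HOXD and from 0.129 to 3.07 over all windows. With equal lists the capture difference was -0.0682 points, 18 H3K4me3 regions were in all 5 libraries, and 66.7% (−KTS) and 33.3% (+KTS) of capture peaks overlapped H3K4me3. Leaving out 1 library gave 24 to 39 shared regions, 10 to 22 of 44 to 48 tiles (genome 15.6% to 66.1%), 21.1% to 83.3% (−KTS) and 15.3% to 22.2% (+KTS). Tiles of 20 kb gave 5, and tiles divided by genome coverage gave 6 of 48 (genome 5.65%) with 8 the other way (genome 4.15%). Genome shares were not computed for 20 kb tiles or for shared regions under other settings. The causes were not tested.

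With the replicate number as a block, which the labels do not say pairs samples, the differences were 1.45 points of H3K4me3 (exact permutation p = 1), 13.7 points of capture (exact p = 0.5) and 181 and 35.5 peaks over untagged (exact p = 0.25 and 0.5). Deviations of same-numbered libraries correlated at 0.223 and 0.111 (H3K4me3) and at 0.432 and -0.0906 (capture), over tiles. Between −KTS and +KTS libraries of unlike number, the correlations ran from -0.225 to 0.225 (H3K4me3) and from -0.432 to 0.389 (capture). In a group of 2 libraries the deviations of 1 mirror those of the other, so these values cannot show whether the number pairs samples. The number of libraries and the unknown depth limit every comparison.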
